A study of Homo sapiens with 24 samples.

Results

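The insulin-like growth factor (IGF) axis is described here through 10 genes: the ligands IGF1 and IGF2, the receptor IGF1R and the 7 binding proteins from IGFBP1 to IGFBP7. A probe was taken as a member when the RefSeq transcript named for it in the scanner files belonged to one of these genes, which gave 12 probes for 10 of the 20503 genes with a symbol on the array. Of these probes, 9 passed the filter on dim signal, each for a different gene, and IGF2 was the gene left without a tested probe.

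IGF1 and IGF2 are secreted hormones that act through the receptor tyrosine kinase IGF1R, and the liver is the main source of IGF1 in blood. Binding proteins in the IGFBP family hold the ligands outside the cell, lengthen their stay in blood, and either block or deliver them to the receptor. Hepatocytes secrete several of them, and proteases that cleave binding proteins set ligand free.

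Gene expression was measured in HepaRG cells, an established human line of bipotent liver progenitors, on 24 single-colour (Cy3) Agilent arrays. There were 8 conditions with 3 arrays each, and the question was how these cells respond to Wnt3a and how removing β-catenin or trapping Wnt alters that response. Every array had 62976 spots, of which between 58.3% and 66.5% were well above background, and the number of arrays limits the precision. The untransfected cells were either untreated or given 200 ng/ml Wnt3a. Another pair of groups received 80 pmol of control (scrambled) siRNA, without or with the same Wnt3a. A further pair received 80 pmol of siRNA against β-catenin, the transcriptional partner through which Wnt signals reach the nucleus, again without or with Wnt3a. The last pair was not transfected and received 300 ng/ml FZD8_CRD, a soluble piece of the receptor Frizzled-8 that binds Wnt, alone or together with Wnt3a. The study's methods describe siRNA delivery by electroporation of detached cells. Against untransfected cells, control siRNA and that procedure therefore cannot be told apart. The methods name a single siRNA against β-catenin, so that on these arrays its other effects and loss of β-catenin cannot be told apart either. Treatment lasted 72 h in all groups, and all groups were grown from the same line, so that no comparison reaches beyond it. The study's methods describe the replicates as separate culture experiments, while the array labels hold a replicate number alone. The p-values below measure the spread between these arrays.

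Levels are given as log2 of the background-subtracted intensity over the 75th percentile of the same array, so that 0 is the level of that percentile, and arrays are named in the order 1, 2 and 3. The floor for signals that could not be detected was -6.13. A level describes a probe against itself across conditions, since probes differ in how brightly they bind. A fold change is the difference of log2 means ± its standard error from limma, and a gene was called at an adjusted p under 0.05 over 24643 genes.

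The labels were checked with CTNNB1, which encodes β-catenin, and with AXIN2, a feedback target of Wnt signalling. CTNNB1 stood at 0.26, 0.35 and 0.52 after its siRNA without Wnt3a, against 3.35, 3.37 and 3.51 after control siRNA. The groups lay far apart, and the fold change of CTNNB1 was -3.03 ± 0.17 (adjusted p = 1.2e-09) without Wnt3a and -3.02 ± 0.17 (adjusted p = 7.7e-10) with it. AXIN2 rose with Wnt3a in untransfected cells (0.37 ± 0.10, adjusted p = 0.0453) and after control siRNA (0.60 ± 0.10, adjusted p = 0.00662). The first of these calls of AXIN2 rests on few arrays. It ended without array 1, 2 or 3 of the untreated cells (adjusted p = 0.0762, 0.0893 and 0.109) and without array 1 or 2 of untransfected cells with Wnt3a (0.127 and 0.11), as well as under normexp (0.0786), with the deposited values (0.0525), without a filter (0.0715), with averaged probes (0.0558) and with only the conditions compared (0.46). Under spike-in scaling AXIN2 was at -0.03 (0.938), where the median of all genes moved as well, from 0.01 to -0.38. The other ended without array 2 of control siRNA with Wnt3a (0.0517) or array 3 of control siRNA alone (0.0563), and under spike-in scaling (0.541), and both ended without replicate 1 (0.411 and 0.299) or replicate 2 (0.608 and 0.223). After β-catenin siRNA the response of AXIN2 was -0.26 ± 0.10 (adjusted p = 0.382). Against control siRNA, β-catenin siRNA lowered AXIN2 with Wnt3a, by 0.74 ± 0.10 (adjusted p = 7.9e-05), a call that ended under spike-in scaling (0.0574). Without Wnt3a the value for AXIN2 was 0.11 ± 0.10 and was not called (adjusted p = 0.615). With FZD8_CRD the response of AXIN2 to Wnt3a was 0.13 ± 0.10 (adjusted p = 0.58), and 0.00 ± 0.10 (adjusted p = 1) without array 3 of FZD8_CRD alone, which the next paragraph describes. With all arrays AXIN2 was called lower with FZD8_CRD alone than in untreated cells, and also without that array (-0.47 ± 0.10, adjusted p = 0.000703). In the presence of Wnt3a, FZD8_CRD was likewise called to lower AXIN2 with all arrays. AXIN2 was also called lower with control siRNA alone than in untreated cells (-0.34). That call ended under normexp (adjusted p = 0.0577) and spike-in scaling (0.181), with only the conditions compared (0.0696), without replicate 1 or 2 (0.335 and 0.147) and without some single arrays.

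Array 3 of FZD8_CRD alone stood apart from its group. Over all genes, with each gene centred, its Pearson r was 0.17 with the other arrays of its own label and 0.74 with the arrays of FZD8_CRD plus Wnt3a, while 19 of the 24 arrays were most like their own condition. The other 4 exceptions were the 3 arrays of untransfected cells with Wnt3a and array 3 of β-catenin siRNA with Wnt3a, whose r with another condition lay between 0.35 and 0.66. Calls of the members that rest on array 3 of FZD8_CRD alone are given with and without it, as are the counts below of members, pathway genes and markers in the comparisons it enters. The replicates were spread over 3 slides, replicate by replicate. A given condition sat at the same place on each of them, with the Wnt3a-treated samples in row 2, so that position on the slide and condition cannot be told apart. The difference within each slide and the value with the slide as a block are given where they alter a call.

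IGF1, the growth-promoting hormone of the liver, was read by a probe with 10 spots that was well above background on 15 of 24 arrays. In untransfected cells its level was -2.46, -3.46 and -4.58 without Wnt3a and -4.14, -5.62 and -4.11 with it. After control siRNA it was -5.82, -6.01 and -6.07 without Wnt3a and -4.65, -6.13 and -6.13 with it. Arrays 1 and 2 of the untreated cells were the highest for IGF1, and array 3 was more than 2 log2 units under array 1. That array also lay under all 3 arrays with FZD8_CRD and Wnt3a, by less. All 3 arrays of control siRNA alone were near the floor, with 3, 4 and 2 of their 10 spots well above background, and did not overlap with the untreated arrays. After β-catenin siRNA the level of IGF1 was -4.52, -5.46 and -5.18 without Wnt3a and -6.09, -5.81 and -5.29 with it. With FZD8_CRD it was -6.03, -6.13 and -4.59 alone and -4.21, -4.15 and -4.21 with Wnt3a. The arrays with FZD8_CRD and Wnt3a lay close together and above all 3 with FZD8_CRD alone, of which array 3 was the highest. Neighbouring conditions in the order of the means overlapped at every step, from -3.50 ± 1.06 (SD, n = 3) in untreated cells to -5.97 ± 0.13 (SD, n = 3) after control siRNA.

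IGF1 fell with control siRNA in the absence of Wnt3a, by 2.46 ± 0.52 (adjusted p = 0.00197, lower on 3 of 3 slides). Since the probe was not well above background in that group, this is a fall of at least 5.52-fold with the scaling used here. Over the alternatives the fold change of IGF1 ran from -3.00 to -0.89, with the smallest size under normexp and its offset, and it was -2.02 without replicate 1. Without replicate 1 it was no longer called (adjusted p = 0.0778), and over its alternatives the adjusted p of IGF1 ran from 8.9e-05 to 0.0778. IGF1 also fell with FZD8_CRD alone, by 2.08 ± 0.52 (adjusted p = 0.00296), with slide differences of -3.57, -2.67 and -0.01. Over the alternatives this fold change ran from -3.12 to -0.85, and it was -1.34 without replicate 1. Without array 3 of FZD8_CRD alone the fold change was -2.58 (adjusted p = 0.000802), a lower bound on the size because the 2 arrays left were not well above background, while leaving out replicate 1 or replicate 2 from every condition ended the call for IGF1 (adjusted p = 0.0996 and 0.0755, in a range from 9.2e-05 to 0.0996). The response of IGF1 to Wnt3a was -1.12 ± 0.52 (adjusted p = 0.215; -1.66 and 0.047 without array 3 of the untreated cells) in untransfected cells and 1.39 ± 0.52 (adjusted p = 0.11; 1.89 and 0.0164 without array 3 of FZD8_CRD alone) with FZD8_CRD. The test of the difference between these responses gave 2.52 ± 0.73 (adjusted p = 0.151, past the study's thresholds), and without array 3 of FZD8_CRD alone 3.01 ± 0.72 (adjusted p = 0.0132). For IGF1 the values of 1.89 and 3.01 are lower bounds as well, since they rest on the same 2 arrays. Leaving out array 3 of the untreated cells instead also took the difference for IGF1 past the threshold (3.06, adjusted p = 0.0326), as did leaving out replicate 3 from every condition (3.82, adjusted p = 0.00989), where the response of IGF1 was -1.92 in untransfected cells (adjusted p = 0.0253) and 1.90 with FZD8_CRD (adjusted p = 0.0282).

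Hepatocyte markers moved with IGF1 in part of the conditions. The 7 genes used (ALB, APOA1, APOB, TTR, SERPINA1, HNF4A and CYP3A4) were all tested, and their summed level, in multiples of the 75th percentile, was 1400.8, 1070.5 and 764 in untreated cells. The brightest probe was that of ALB, except on the 3 arrays of control siRNA with Wnt3a, where it was that of SERPINA1, and brightness does not rank the genes by abundance. In untransfected cells with Wnt3a the sum was 887, 392 and 891, and the array lowest for the sum was also the lowest for IGF1. After control siRNA alone the sum was 405, 372 and 385, and 7 of 7 markers were called lower than in untreated cells (median -1.65, against -0.03 over all genes, of which 22.3% were called). Control siRNA with Wnt3a gave the sums 267, 192 and 260, and β-catenin siRNA 612, 469 and 588 without Wnt3a and 282, 386 and 488 with it. With FZD8_CRD plus Wnt3a it was 391, 382 and 376, which lay within the range after control siRNA alone, while IGF1 was higher on each of these arrays than on any with control siRNA alone. With FZD8_CRD alone it was 364, 247 and 363, with 7 of 7 markers called lower, with or without its array 3, where 41.9% and 40.6% of all genes were called. Between FZD8_CRD with and without Wnt3a 3 of 7 were called, 2 higher and 1 lower, with or without that array (8.29% and 19.9% of all genes). For the difference between the Wnt3a responses with and without FZD8_CRD limma called 0 of 7 with all arrays, with 4 at an unadjusted p under 0.05 (12.7% of all genes), and without array 3 of FZD8_CRD alone 3 of 7, APOA1, APOB and TTR, 2 higher and 1 lower (median 0.95, with 7.75% of all genes called). In such bulk samples, fewer hepatocyte-like cells and less RNA per cell cannot be told apart, and the part of either in the changes of IGF1 was not tested.

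**Figure D1:**
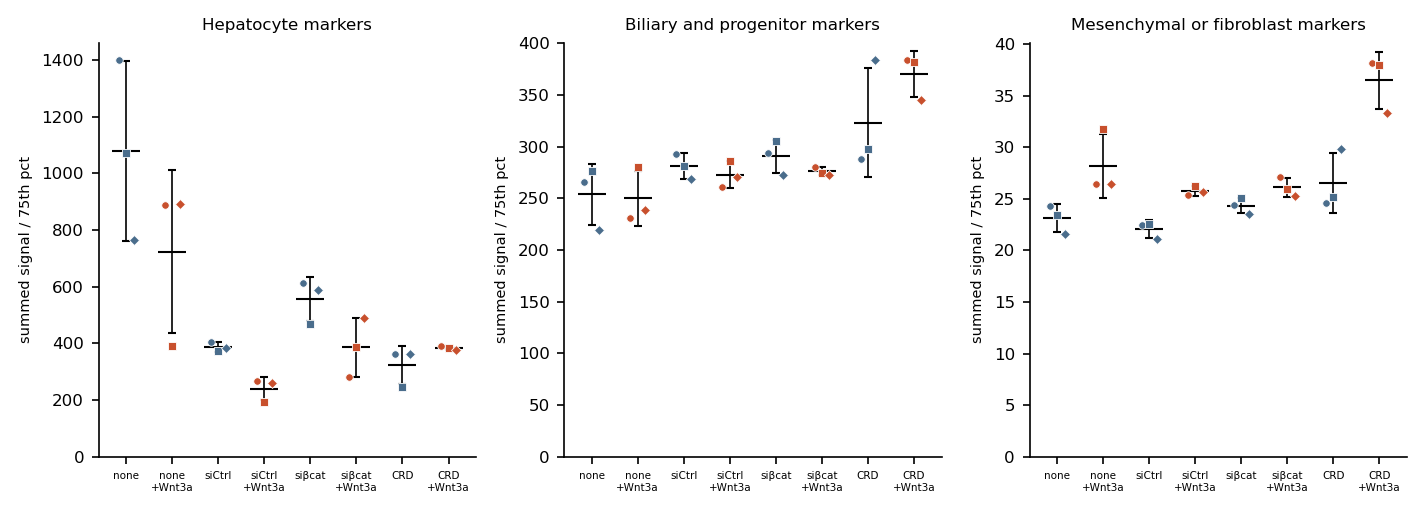
Summed signal of 3 marker lists (y axis, multiples of the 75th percentile of the array) on each array of the 8 conditions (none, control siRNA, β-catenin siRNA and FZD8_CRD, CRD, each without Wnt3a in blue and with it in red), with the mean and SD as bars. The hepatocyte sum has its highest mean in untreated cells, with arrays from 764 to 1400.8 that overlap with those given Wnt3a, and the mesenchymal sum is highest with FZD8_CRD and Wnt3a, at 33.3 to 38.2.

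IGF2, the ligand best known from fetal growth, was not detected. Its brighter probe was well above background on 1 of 24 arrays, array 2 of control siRNA with Wnt3a, at -5.43, and was at the floor on all others. The second IGF2 probe was well above background on 0 of 24 arrays. No fold change of IGF2 was tested, and a level under the detection limit of these arrays does not show that the transcript is absent. The second IGF1 probe passed on 1 of 24 arrays and was not tested either.

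**Figure D2:**
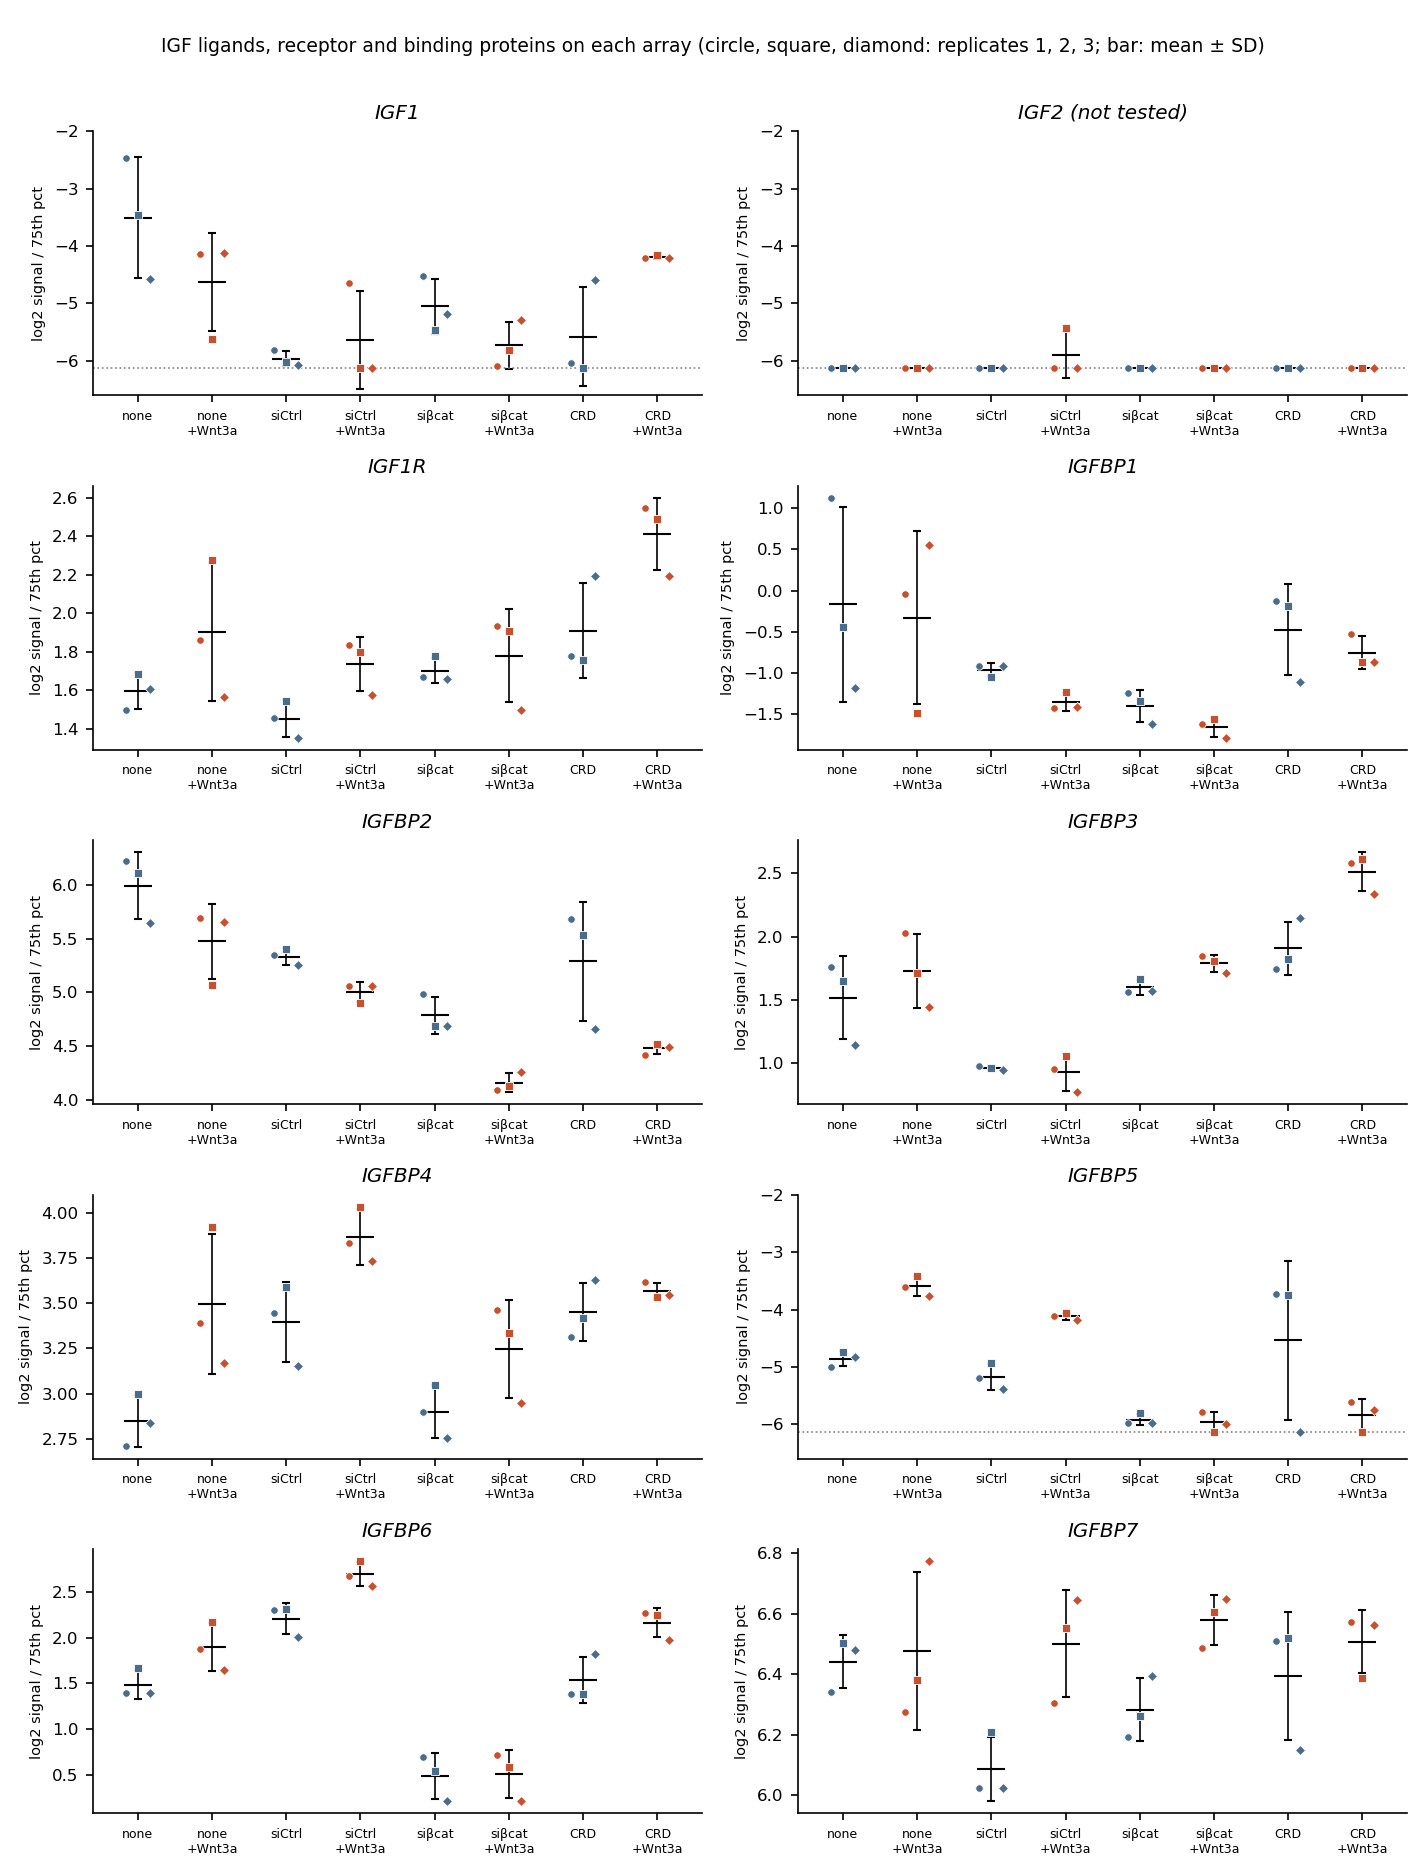
Level of each of the 10 genes (y axis, log2 of intensity over the 75th percentile) on each array of the 8 conditions, without Wnt3a in blue and with it in red, with the mean and SD as bars and the floor of -6.13 dotted where it falls in range. IGFBP6 is lowest on all arrays with β-catenin siRNA, and IGFBP3 on all arrays with control siRNA.

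IGF1R is the receptor tyrosine kinase through which both ligands signal growth and survival. Its level in untransfected cells was 1.496, 1.68 and 1.61 without Wnt3a and 1.86, 2.28 and 1.56 with it. With FZD8_CRD it was 1.78, 1.76 and 2.19 alone and 2.54, 2.49 and 2.20 with Wnt3a. The highest 2 arrays were those with FZD8_CRD and Wnt3a, but array 3 of that group lay under array 2 of untransfected cells with Wnt3a, so that these groups overlapped. After control siRNA the level of IGF1R was 1.46, 1.55 and 1.35 without Wnt3a and 1.83, 1.80 and 1.57 with it, and after β-catenin siRNA 1.67, 1.78 and 1.66 without Wnt3a and 1.93, 1.91 and 1.501 with it. In these 4 siRNA conditions the means ran from 1.45 ± 0.10 (SD, n = 3) after control siRNA alone to 1.78 ± 0.24 (SD, n = 3) after β-catenin siRNA with Wnt3a, and every neighbour in the order of the means overlapped below FZD8_CRD with Wnt3a.

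In the presence of Wnt3a, IGF1R rose with FZD8_CRD by 0.51 ± 0.15 (adjusted p = 0.0132, higher on 3 of 3 slides). That call ended when array 1 or array 2 of FZD8_CRD with Wnt3a, or array 3 of untransfected cells with Wnt3a, was left out (adjusted p for IGF1R of 0.0613, 0.0506 and 0.0925), and without replicate 1 (0.239). It also ended with only the conditions compared (0.0828), under spike-in scaling (0.37) and by the study's thresholds, in a range for IGF1R from 0.00094 to 0.37 over all alternatives. Between FZD8_CRD with and without Wnt3a the difference for IGF1R was 0.50 ± 0.15 and just missed the threshold (adjusted p = 0.05002), with slide differences of 0.76, 0.74 and 0.00 and an adjusted p of 0.025 with the slide as a block. For IGF1R it also passed under quantile normalization (0.0373), with the filter on all 24 arrays (0.0474), with averaged probes (0.04997) and without replicate 3 (0.000528). Without array 3 of FZD8_CRD alone it was 0.64 ± 0.16 (adjusted p = 0.00688), and without array 3 of FZD8_CRD with Wnt3a 0.61 (adjusted p = 0.0428). Wnt3a in untransfected cells passed for IGF1R without its own array 3 (0.47, adjusted p = 0.0495) and without replicate 3 (0.48, adjusted p = 0.00929). No siRNA comparison of IGF1R was called with all conditions fitted. With only the conditions compared, β-catenin siRNA without Wnt3a passed for IGF1R (0.25, adjusted p = 0.0456).

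IGFBP6, a binding protein that prefers IGF2 over IGF1, was lowest after loss of β-catenin. After control siRNA its level was 2.30, 2.31 and 2.01 without Wnt3a and 2.68, 2.84 and 2.57 with it. After β-catenin siRNA it was 0.70, 0.54 and 0.21 without Wnt3a and 0.72, 0.59 and 0.21 with it. All 6 arrays with β-catenin siRNA lay below every other array of the study. Untransfected cells were at 1.39, 1.67 and 1.39 without Wnt3a and at 1.88, 2.17 and 1.64 with it, and FZD8_CRD gave 1.39, 1.39 and 1.82 alone and 2.27, 2.25 and 1.98 with Wnt3a. Both FZD8_CRD conditions overlapped with the untransfected condition of the same Wnt3a state, and control siRNA with Wnt3a was the highest condition, with no overlap with the next.

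Without Wnt3a, IGFBP6 fell with β-catenin siRNA by 1.73 ± 0.16 on the log2 scale, a level 3.31-fold lower (adjusted p = 1.9e-06, lower on 3 of 3 slides). With Wnt3a it fell by 2.19 ± 0.16, a level 4.57-fold lower (adjusted p = 3.8e-08, lower on 3 of 3 slides). These calls were lost in 0 of 19 alternative settings each, in which the fold change of IGFBP6 lay between -1.83 and -1.59 and between -2.39 and -2.04, and the highest adjusted p was 0.0048 and 0.000925. The response to Wnt3a itself was 0.49 ± 0.16 after control siRNA (adjusted p = 0.132) and 0.02 ± 0.16 after β-catenin siRNA (adjusted p = 1), and the difference of the responses, -0.47 ± 0.23, was not called (adjusted p = 1). Against untransfected cells, IGFBP6 was higher with control siRNA, by 0.72 ± 0.16 without Wnt3a (adjusted p = 0.00328) and by 0.80 ± 0.16 with it (adjusted p = 0.00689). In untransfected cells Wnt3a gave 0.41 ± 0.16 (adjusted p = 0.141), and 0.54 (adjusted p = 0.048) without array 3 of the treated group and 0.49 (adjusted p = 0.00809) without replicate 3. With FZD8_CRD present IGFBP6 rose with Wnt3a by 0.63 ± 0.16 (adjusted p = 0.0208), and by 0.78 (adjusted p = 0.00259) without array 3 of FZD8_CRD alone. That last call rests on few arrays, since leaving out array 1 or 2 of FZD8_CRD alone gave an adjusted p of 0.144 and 0.137 for IGFBP6, and leaving out array 1 or 2 of FZD8_CRD with Wnt3a 0.0894 and 0.084. Without replicate 1 or 2 it was 0.628 and 0.528, without a filter 0.053, with only the conditions compared 0.211 and under spike-in scaling 0.857, in a range for IGFBP6 from 0.000195. The rise with control siRNA under Wnt3a ended without array 2 of that group (adjusted p = 0.0536 for IGFBP6), and both rises ended without replicate 1 (0.156 without Wnt3a and 0.172 with it) and under spike-in scaling (0.366 and 0.0553), and the one with Wnt3a also with only the conditions compared (0.176), with ranges for IGFBP6 from 0.000799 to 0.366 and from 0.00104 to 0.176.

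IGFBP3 carries most of the IGF in blood, in a complex with the acid-labile subunit. After control siRNA its level was 0.98, 0.96 and 0.95 without Wnt3a and 0.96, 1.06 and 0.77 with it. After β-catenin siRNA it was 1.57, 1.67 and 1.57 without Wnt3a and 1.85, 1.80 and 1.71 with it. All 6 control siRNA arrays lay below every other array, so that IGFBP3 was lowest where IGFBP6 was highest. Untransfected cells had levels of 1.76, 1.65 and 1.14 without Wnt3a and 2.03, 1.71 and 1.44 with it, and FZD8_CRD gave 1.75, 1.83 and 2.15 alone and 2.58, 2.61 and 2.34 with Wnt3a. The arrays with FZD8_CRD and Wnt3a were above all others, and those with β-catenin siRNA lay within the range of untransfected cells of the same Wnt3a state.

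Against control siRNA, IGFBP3 rose with β-catenin siRNA by 0.64 ± 0.15 without Wnt3a (adjusted p = 0.0076) and by 0.86 ± 0.15 with it (adjusted p = 0.000552), higher on 3 of 3 slides in each. Against untransfected cells it fell with control siRNA by 0.55 ± 0.15 without Wnt3a (adjusted p = 0.00988) and by 0.80 ± 0.15 with it (adjusted p = 0.00437). These 4 comparisons share the control siRNA arrays, so that the rise and the fall are not separate evidence. The fall without Wnt3a ended without array 1 of the untreated cells (adjusted p = 0.0763 for IGFBP3), and leaving out replicate 2 from every condition ended each of the 4 calls (0.212, 0.0583, 0.207 and 0.054). Leaving out replicate 1 ended 3 of them (0.0929 for the rise without Wnt3a, 0.206 and 0.157 for the falls). Spike-in scaling ended both rises and the fall with Wnt3a (0.293, 0.242 and 0.396 for IGFBP3), and with only the conditions compared both falls ended (0.0664 and 0.176). Over all alternatives the highest adjusted p of IGFBP3 was 0.293 and 0.242 for the rises and 0.207 and 0.396 for the falls, and the lowest 0.00132, 0.000205, 0.000528 and 0.0016. With Wnt3a present, IGFBP3 rose with FZD8_CRD by 0.78 ± 0.15 (adjusted p = 0.000336), a call lost in 1 of 19 alternatives, under spike-in scaling (adjusted p = 0.0839, the highest in a range from 0.000111). With FZD8_CRD present it rose with Wnt3a by 0.61 ± 0.15 (adjusted p = 0.0151), and by 0.73 ± 0.16 (adjusted p = 0.00223) without array 3 of FZD8_CRD alone. Leaving out array 1 or 2 of FZD8_CRD alone ended that call (adjusted p for IGFBP3 of 0.12 and 0.0991), as did array 1 or 2 of FZD8_CRD with Wnt3a (0.0666 and 0.0719) and replicate 1 or 2 (0.529 and 0.547), fitting only the conditions compared (0.211) and spike-in scaling (0.794), in a range from 8.3e-05. For FZD8_CRD without Wnt3a the fold change was 0.39 ± 0.15 (adjusted p = 0.0388), with overlap of the groups and slide differences of -0.01, 0.18 and 1.00. That call rests on array 3 of FZD8_CRD alone, without which IGFBP3 gave 0.27 ± 0.16 (adjusted p = 0.18), and it also ended without array 2 of that group (0.0522) and without array 3 of the untreated cells (0.264). Leaving out replicate 2 or 3 gave 0.123 and 0.494 for IGFBP3. The call was also lost under quantile normalization (0.0862), with the deposited values (0.0631), without a filter (0.0838), with only the conditions compared (0.167), by the study's thresholds and under spike-in scaling (0.999), in a range for IGFBP3 from 0.016. Under spike-in scaling IGFBP3 was at -0.0005 ± 0.26, which gives no direction, and the median of all genes moved from -0.09 to -0.48. The difference between the Wnt3a responses with and without FZD8_CRD was 0.39 ± 0.21 for IGFBP3 (adjusted p = 0.461), and it was 0.64 (adjusted p = 0.00871) without replicate 3.

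IGFBP5 binds to extracellular matrix and is made by many mesenchymal cells. Its signal was weak, with the probe well above background on 20 of 24 arrays. In untransfected cells the level was -5.00, -4.74 and -4.82 without Wnt3a and -3.61, -3.41 and -3.76 with it. After control siRNA it was -5.19, -4.93 and -5.38 without Wnt3a and -4.11, -4.06 and -4.19 with it. In both settings the 3 arrays with Wnt3a were above the 3 without, with no overlap. After β-catenin siRNA the level was -5.97, -5.81 and -5.97 without Wnt3a and -5.78, -6.13 and -5.99 with it. With FZD8_CRD it was -3.72, -3.75 and -6.13 alone and -5.60, -6.13 and -5.76 with Wnt3a. All 6 arrays with β-catenin siRNA were near the floor, as were the 3 with FZD8_CRD and Wnt3a. Within FZD8_CRD alone, arrays 1 and 2 were in the range of untransfected cells with Wnt3a, and array 3 was at the floor.

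With Wnt3a present, IGFBP5 fell with β-catenin siRNA by 1.85 ± 0.40 (adjusted p = 0.00387, lower on 3 of 3 slides) and with FZD8_CRD by 2.24 ± 0.40 (adjusted p = 0.000198, lower on 3 of 3 slides). Among the arrays given Wnt3a, its signal passed the well-above-background test on 1 of 3 after β-catenin siRNA and 2 of 3 after FZD8_CRD, so that both sizes are best read as lower bounds. Over the alternatives the fold change of IGFBP5 ran from -2.05 to -0.56 and from -2.36 to -0.82, with the smallest sizes under normexp. The latter call was lost in 0 of 18 alternatives, and the former ended without replicate 1 (adjusted p = 0.0829 for IGFBP5) and without replicate 2 (0.145), in a range from 0.000439. Without Wnt3a, β-catenin siRNA gave -0.75 ± 0.40 for IGFBP5 (adjusted p = 0.284), with no overlap of the groups and slide differences of -0.78, -0.87 and -0.59. It was called with only the conditions compared (adjusted p = 0.0251) and without replicate 3 (-0.83, adjusted p = 0.0464). The response to Wnt3a was 1.26 ± 0.40 in untransfected cells and was not called (adjusted p = 0.0669), although the slide differences were 1.39, 1.33 and 1.07 and the adjusted p with the slide as a block was 0.0374. This response of IGFBP5 was also called under normexp (0.55, adjusted p = 0.0173), without replicate 3 (1.36, adjusted p = 0.0025) and by the study's thresholds. After control siRNA it was 1.05 ± 0.40 (adjusted p = 0.202), with slide differences of 1.08, 0.88 and 1.20 and a call with only the conditions compared (adjusted p = 0.0206), and after β-catenin siRNA -0.05 ± 0.40 (adjusted p = 1). Testing whether the siRNAs differed in this response gave -1.10 ± 0.56 (adjusted p = 1), so that a different response of IGFBP5 after loss of β-catenin was not shown. The standard error is shared by all conditions, and the SD of IGFBP5 was 1.38 with FZD8_CRD alone. In the siRNA conditions its SD ran from 0.07 to 0.23. With the β-catenin siRNA arrays also near the floor, this test cannot decide whether the responses differed.

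With FZD8_CRD present, IGFBP5 fell with Wnt3a by 1.30 ± 0.40 (adjusted p = 0.0483), with slide differences of -1.88, -2.38 and 0.37 and overlap of the groups through array 3 of FZD8_CRD alone. Without that array the fold change was -2.10 ± 0.19 (adjusted p = 2.4e-07). The call made with all arrays was lost in 13 of 18 alternatives, over which the fold change of IGFBP5 ran from -2.13 to -0.40. Among these were the alternatives without array 1 or 2 of FZD8_CRD alone (adjusted p = 0.345 and 0.333) and without array 1, 2 or 3 of FZD8_CRD with Wnt3a (0.0908, 0.176 and 0.104), and those without replicate 1 or 2 (0.742 and 0.831), in a range from 2.4e-07. The others that ended it for IGFBP5 were quantile normalization (0.0526), normexp (0.0634), the deposited values (0.176), no filter (0.107), only the conditions compared (0.401) and spike-in scaling (0.253). FZD8_CRD without Wnt3a gave 0.32 ± 0.40 (adjusted p = 0.551) with array 3 and 1.12 ± 0.19 (adjusted p = 0.000112) without it, and 1.14 (adjusted p = 0.00193) without replicate 3. The difference between the Wnt3a responses with and without FZD8_CRD was -2.56 ± 0.56 for IGFBP5. It was not called (adjusted p = 0.0735), with slide values of -3.27, -3.71 and -0.69 and an adjusted p of 0.0415 with the slide as a block, and it passed the study's thresholds. Leaving out array 3 of FZD8_CRD alone gave -3.36 ± 0.25 (adjusted p = 1.8e-07). Without replicate 3 in any condition it was -3.49 (adjusted p = 0.000132). Leaving out array 3 of the untreated cells or of untransfected cells with Wnt3a also brought the difference for IGFBP5 under the threshold (adjusted p = 0.0357 and 0.0484).

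**Figure D3:**
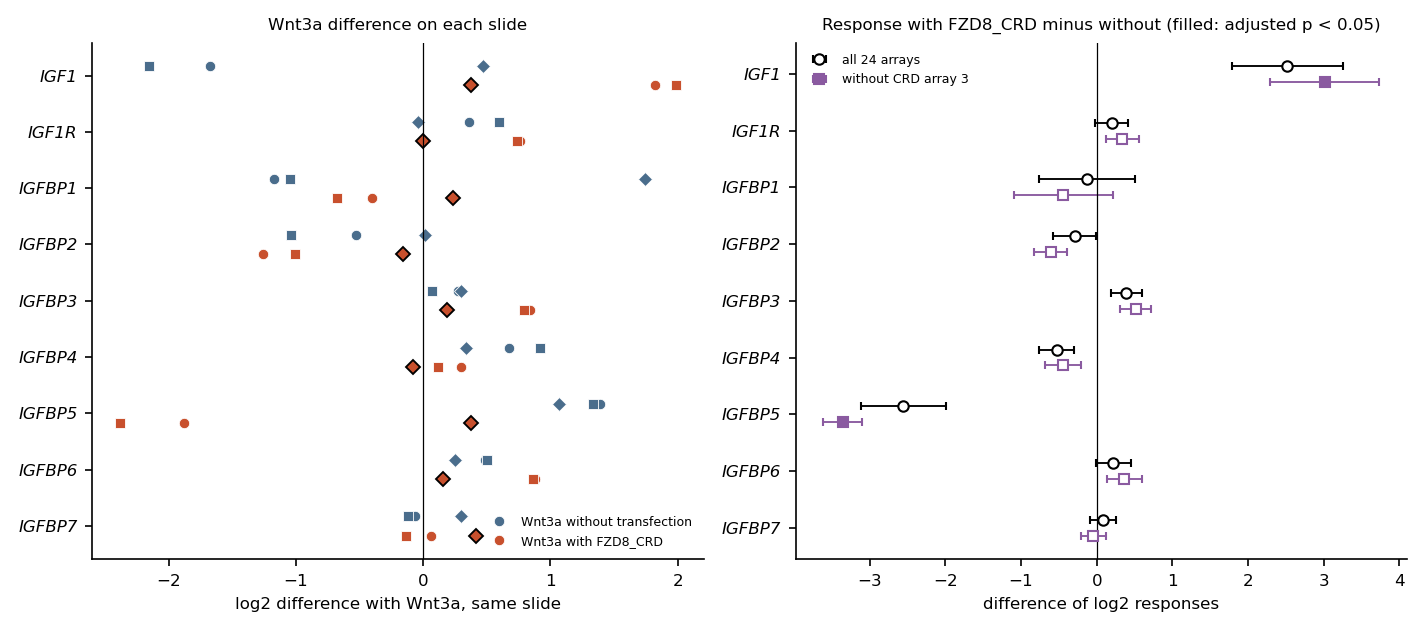
Left, the log2 difference between Wnt3a and no Wnt3a (x axis) on each of the 3 slides for the 9 tested genes, in untransfected cells (blue) and with FZD8_CRD (red), with slide 3 of FZD8_CRD outlined; right, the difference of these responses ± its standard error with all 24 arrays (circles) and without array 3 of FZD8_CRD alone (squares). For IGFBP5 the value is -2.56 with that array and -3.36 without it.

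Promoter sequence is shown for IGFBP6 and IGFBP5, which fell with β-catenin siRNA in the presence of Wnt3a, and for IGFBP3, which rose in the same comparison. IGFBP2 and IGFBP4 fell there too, but their windows held no match to the motifs below and are not shown, so that the choice was made with the matches known. Each run holds the 250 bases before the transcript start, 5′ to 3′ on the gene's strand, from RefSeq on GRCh38.p14. IGFBP6 lies on the plus strand at chr12:53097417-53097666, IGFBP5 on the minus strand at chr2:216695550-216695799, and IGFBP3 on the minus strand at chr7:45921273-45921522. Capitals mark 3 motifs searched on both strands. They are the core of the TCF/LEF factors that β-catenin joins, CTTTG or CAAAG, its longer form CTTTGAT or ATCAAAG, which contains the core, and the motif of FOXO factors, which insulin and IGF signals hold out of the nucleus, GTAAACA or TGTTTAC.
IGFBP6: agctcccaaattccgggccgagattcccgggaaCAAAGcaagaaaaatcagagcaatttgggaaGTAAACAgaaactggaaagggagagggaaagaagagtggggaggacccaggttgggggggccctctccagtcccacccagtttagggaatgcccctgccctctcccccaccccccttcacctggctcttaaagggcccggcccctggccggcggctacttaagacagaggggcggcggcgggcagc
IGFBP5: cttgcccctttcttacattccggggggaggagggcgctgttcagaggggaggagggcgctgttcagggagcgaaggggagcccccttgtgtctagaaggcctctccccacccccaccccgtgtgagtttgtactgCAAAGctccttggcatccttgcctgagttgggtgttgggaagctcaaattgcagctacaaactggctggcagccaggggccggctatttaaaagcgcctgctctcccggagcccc
IGFBP3: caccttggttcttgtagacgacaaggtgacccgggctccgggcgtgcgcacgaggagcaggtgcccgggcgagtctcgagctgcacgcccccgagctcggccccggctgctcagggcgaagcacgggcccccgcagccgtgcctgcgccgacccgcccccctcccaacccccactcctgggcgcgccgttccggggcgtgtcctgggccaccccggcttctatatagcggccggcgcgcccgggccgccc

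The IGFBP6 window held CAAAG at 217 bases and GTAAACA at 186 bases before the start, the IGFBP5 window held CAAAG at 115 bases, and the IGFBP3 window held no match. Among 35116 promoter windows of the same length in the table, 42.1% held the TCF/LEF core, 2.26% its longer form and 2.98% the FOXO motif. RefSeq entries were matched for 7 of the 10 genes, in 10 windows, and IGF2, IGFBP1 and IGFBP7 had none. A core was found for 3 of these 7 genes, IGF1, IGFBP5 and IGFBP6, the FOXO motif for 2, IGF1 and IGFBP6, and the longer form for 0. A match is a description of letters and not a binding site, and a window without one says only that these letters are not in it. By position, IGFBP2 and IGFBP5 are neighbours on chromosome 2, and IGFBP1 and IGFBP3 on chromosome 7.

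IGFBP2 is a major binding protein of liver and of fetal plasma. In untransfected cells its level was 6.22, 6.11 and 5.64 without Wnt3a and 5.69, 5.07 and 5.65 with it. After control siRNA it was 5.35, 5.40 and 5.25 without Wnt3a and 5.06, 4.90 and 5.06 with it. Control siRNA arrays lay below the untreated arrays with no overlap. After β-catenin siRNA the level was 4.99, 4.69 and 4.69 without Wnt3a and 4.09, 4.14 and 4.26 with it, and FZD8_CRD gave 5.68, 5.53 and 4.66 alone and 4.42, 4.52 and 4.50 with Wnt3a. Lowest of the study were the 3 that combined β-catenin siRNA and Wnt3a, followed by the 3 with FZD8_CRD and Wnt3a, and neither group overlapped with its neighbours in the order of the means. Array 3 of FZD8_CRD alone stood near the latter group.

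With Wnt3a present, IGFBP2 fell with β-catenin siRNA by 0.84 ± 0.20 (adjusted p = 0.00861) and with FZD8_CRD by 0.99 ± 0.20, a level 1.99-fold lower (adjusted p = 0.000653), on 3 of 3 slides in each. The call with FZD8_CRD was lost in 0 of 19 alternatives, and the other ended without replicate 1 (adjusted p = 0.136 for IGFBP2) and without replicate 2 (0.129) and under spike-in scaling (0.0777), in a range from 0.00218 to 0.136. In the comparison with FZD8_CRD 5 of 7 hepatocyte markers were called lower (median -1.07, against -0.08 for all genes, of which 37.2% were called), and with β-catenin siRNA 1 of 7 was called, higher (median 0.43, against -0.01, with 10.6% called). The part of these markers in the falls of IGFBP2 was not tested. Without Wnt3a, β-catenin siRNA gave -0.55 ± 0.20 (adjusted p = 0.0933), which was called for IGFBP2 with only the conditions compared (0.0133). With FZD8_CRD present, IGFBP2 fell with Wnt3a by 0.81 ± 0.20 (adjusted p = 0.0173), and the value was -1.13 ± 0.16 (adjusted p = 5.4e-05) without array 3 of FZD8_CRD alone. Leaving out array 1 or 2 of FZD8_CRD alone ended this call (adjusted p for IGFBP2 of 0.162 and 0.132), as did array 1 or 2 of FZD8_CRD with Wnt3a (0.0665 and 0.0524) and replicate 1 or 2 (0.625 and 0.473), fitting only the conditions compared (0.249) and spike-in scaling (0.289), in a range from 5.4e-05 to 0.625. For FZD8_CRD alone the fall of 0.70 ± 0.20 (adjusted p = 0.00806) became -0.39 ± 0.16 (adjusted p = 0.0651) without its array 3, and the call also ended without replicate 2 (0.0547) and with only the conditions compared (0.113), in a range for IGFBP2 from 0.00202 to 0.113. With control siRNA alone IGFBP2 was lower than in untransfected cells, by 0.66 ± 0.20 (adjusted p = 0.0226), a call that ended for IGFBP2 without array 1 or 2 of the untreated cells (0.121 and 0.0772) or array 1 or 3 of control siRNA (0.0557 and 0.0736). Without replicate 1 or 2 it was 0.271 and 0.169, without a filter 0.0591 and under spike-in scaling 0.0712, in a range for IGFBP2 from 0.00357 to 0.271. With Wnt3a, control siRNA passed for IGFBP2 without array 2 of the untransfected group (-0.67, adjusted p = 0.0314). The response of IGFBP2 to Wnt3a in untransfected cells was -0.52 ± 0.20 (adjusted p = 0.134), and without array 3 of the untreated cells it was -0.69 (adjusted p = 0.0407), and without replicate 3 in any condition -0.78 (adjusted p = 0.00519). After control siRNA it was -0.33 ± 0.20 (adjusted p = 0.55, and 0.0449 with only the conditions compared), and after β-catenin siRNA -0.62 (adjusted p = 0.289), which passed the study's thresholds.

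IGFBP4, which mostly restrains IGF action and is cleaved by the protease PAPPA, had its lowest levels in untreated cells and after β-catenin siRNA without Wnt3a. In untransfected cells it stood at 2.71, 3.00 and 2.84 without Wnt3a and at 3.39, 3.92 and 3.17 with it. After control siRNA the level was 3.44, 3.59 and 3.16 without Wnt3a and 3.83, 4.03 and 3.73 with it. Both control siRNA conditions were above their counterpart in mean, and the untreated arrays lay below all arrays of these other 3 conditions. After β-catenin siRNA it stood at 2.90, 3.05 and 2.76 without Wnt3a and at 3.46, 3.33 and 2.95 with it, and FZD8_CRD gave 3.31, 3.42 and 3.63 alone and 3.61, 3.53 and 3.55 with Wnt3a. The FZD8_CRD conditions overlapped with each other, and each β-catenin siRNA condition lay below the control siRNA condition of the same Wnt3a state with no overlap.

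Among all members, IGFBP4 was the gene called for Wnt3a in untransfected cells, where it rose by 0.64 ± 0.16, a level 1.56-fold higher (adjusted p = 0.0256, higher on 3 of 3 slides). The call was lost in 8 of 19 alternatives, including those without array 1 or 2 of the untreated cells (adjusted p for IGFBP4 of 0.113 and 0.0502) and without array 2 of untransfected cells with Wnt3a (0.223). Without replicate 1 or 2 it was 0.345 and 0.688, without a filter 0.0626, with only the conditions compared 0.453 and under spike-in scaling 0.532, in a range for IGFBP4 from 0.00363. After control siRNA the response was 0.47 ± 0.16 (adjusted p = 0.147), after β-catenin siRNA 0.35 ± 0.16 (adjusted p = 0.461) and with FZD8_CRD 0.11 ± 0.16 (adjusted p = 0.818). The last of these was 0.20 ± 0.18 (adjusted p = 0.522) without array 3 of FZD8_CRD alone. With Wnt3a present, IGFBP4 fell with β-catenin siRNA by 0.62 ± 0.16 (adjusted p = 0.0161), which ended without array 2 of control siRNA with Wnt3a (0.084) or array 3 of β-catenin siRNA with Wnt3a (0.11), or without replicate 1 or 2 (0.124 and 0.115), with only the conditions compared (0.0507) or under spike-in scaling (0.155), in a range for IGFBP4 from 0.00364. Without Wnt3a the same comparison gave -0.50 ± 0.16 (adjusted p = 0.0549), and 0.0161 with the slide as a block, and passed for IGFBP4 without array 3 of control siRNA (adjusted p = 0.037), without replicate 3 (0.0416) and with only the conditions compared (0.0455). Without Wnt3a, IGFBP4 rose with control siRNA by 0.55 ± 0.16 (adjusted p = 0.0191) and with FZD8_CRD by 0.60 ± 0.16 (adjusted p = 0.00512). The latter was 0.51 ± 0.18 (adjusted p = 0.0275) without array 3 of FZD8_CRD alone and ended without replicate 1 (0.0834) and under spike-in scaling (0.582), in a range from 0.00103. The former ended without array 1 of the untreated cells (adjusted p = 0.0921 for IGFBP4) or without array 1 or 2 of control siRNA (0.0621 and 0.0933). Without replicate 1 or 2 it was 0.331 and 0.0766, and under spike-in scaling 0.589, in a range for IGFBP4 from 0.00461, and it did not pass the study's thresholds. With Wnt3a, control siRNA passed for IGFBP4 without array 2 of the untransfected group (0.58, adjusted p = 0.00985).

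IGFBP1, a liver-made binding protein that insulin lowers and fasting raises, was not called in any comparison with all arrays and conditions fitted. Its level was 1.13, -0.44 and -1.19 in untreated cells and -0.05, -1.49 and 0.55 in untransfected cells with Wnt3a. The 3 highest arrays of the study were among these 6, but the spread within each condition was over 1 log2 unit (SD 1.18 and 1.05, n = 3). After control siRNA the level was -0.91, -1.05 and -0.92 without Wnt3a and -1.43, -1.23 and -1.41 with it. After β-catenin siRNA it was -1.25, -1.34 and -1.62 without Wnt3a and -1.63, -1.57 and -1.79 with it, and FZD8_CRD gave -0.12, -0.19 and -1.11 alone and -0.53, -0.87 and -0.87 with Wnt3a. The siRNA conditions lay close together and low, and overlapped with the lower arrays of the untransfected cells. In untreated cells, and in untransfected cells with Wnt3a, the order of the 3 arrays was the same for IGFBP1 as for IGF1. With FZD8_CRD alone it was not, array 3 being the highest for IGF1 and the lowest for IGFBP1. For control siRNA under Wnt3a the difference of IGFBP1 was -1.03 ± 0.45 (adjusted p = 0.169), and it passed the threshold without array 2 of untransfected cells with Wnt3a (-1.61 ± 0.42, adjusted p = 0.0114). Without Wnt3a it was -0.79 ± 0.45 (adjusted p = 0.235), and it passed for IGFBP1 without array 3 of the untreated cells (-1.30, adjusted p = 0.038) or without replicate 3 (-1.32, adjusted p = 0.0485). β-catenin siRNA without Wnt3a gave -0.44 ± 0.45 for IGFBP1 (adjusted p = 0.673), which was called lower with only the conditions compared (adjusted p = 0.0438).

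IGFBP7, a secreted protein with weak affinity for IGF, varied least of the 9 tested members. Its level was 6.34, 6.50 and 6.48 in untreated cells and 6.03, 6.21 and 6.02 after control siRNA alone. With Wnt3a it was 6.28, 6.38 and 6.77 in untransfected cells and 6.30, 6.55 and 6.65 after control siRNA. The untreated and control siRNA groups did not overlap without Wnt3a, and the means of all 8 conditions ran from 6.09 to 6.58. β-catenin siRNA gave 6.19, 6.26 and 6.40 without Wnt3a and 6.49, 6.61 and 6.65 with it, and FZD8_CRD gave 6.51, 6.52 and 6.15 alone and 6.57, 6.39 and 6.56 with Wnt3a. Each of these 4 conditions overlapped with its neighbours in the order of the means. Without Wnt3a, IGFBP7 fell with control siRNA by 0.36 ± 0.12 (adjusted p = 0.0382, lower on 3 of 3 slides), a call lost in 11 of 19 alternatives. Among the single arrays, leaving out array 1, 2 or 3 of the untreated cells (adjusted p for IGFBP7 of 0.0533, 0.11 and 0.0852) or array 1 or 3 of control siRNA (0.116 and 0.116) ended it, as did replicate 1 or 2 (0.184 and 0.194). Normexp (0.0702), the deposited values (0.0512), no filter (0.0806) and spike-in scaling (0.194) ended it too, as did the study's thresholds, which stand outside the 19, in a range for IGFBP7 from 0.0232. The response of IGFBP7 to Wnt3a after control siRNA was 0.42 ± 0.12 (adjusted p = 0.077), with slide differences of 0.28, 0.35 and 0.62 and an adjusted p of 0.0459 with the slide as a block. For IGFBP7 it was also called under quantile normalization (0.0296) and with the deposited values (0.0459). No spot of any member was marked as saturated, on 0 of the 24 arrays, and the brightest IGFBP7 signal was 83110.5 intensity units.

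Counted by comparison, Wnt3a in untransfected cells called 1 of 9 tested members by limma, higher, where 5.6% of all 24643 genes tested were called, and 5 members had an unadjusted p under 0.05 (21.2% of all genes). This count depends on the replicates. Without replicate 3, 6 of 9 were called, with IGF1, IGF1R, IGFBP2, IGFBP5 and IGFBP6 added, and 25.7% of all genes, while without replicate 1 or 2 it was 0 of 9, with 0.11% and 0.0243% of all genes. After control siRNA it called 0 of 9 (2.11% of all genes), with 4 at an unadjusted p under 0.05 (14.0% of all genes), and after β-catenin siRNA 0 of 9 (0.0406% of all genes), with 3 at an unadjusted p under 0.05 (10.4% of all genes). With FZD8_CRD present it called 4 of 9, of which IGFBP3 and IGFBP6 were higher and IGFBP2 and IGFBP5 lower, against 8.29% of all genes, and 6 had an unadjusted p under 0.05 (20.5% of all genes). Without array 3 of FZD8_CRD alone, IGF1 and IGF1R joined these 4, and 19.9% of all genes were called. The median fold change of the members was 0.21, 0.33, 0.02 and 0.11 in these comparisons, in the same order, and that of all genes lay between 0.01 and 0.03. The median absolute response to Wnt3a was 0.41, 0.40, 0.26 and 0.61 for the members, in the same order, and 0.15, 0.12, 0.12 and 0.15 for all genes. For FZD8_CRD the median absolute fold change was 0.32 for the members and 0.33 for all genes without Wnt3a, and 0.44 and 0.30 with it.

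Against control siRNA, β-catenin siRNA called 2 of 9 members without Wnt3a, IGFBP3 higher and IGFBP6 lower, where 10.6% of all genes were called. As given above, IGFBP3 after β-catenin siRNA lay within the range of untransfected cells. With Wnt3a, β-catenin siRNA called 5 of 9 (10.6% of all genes), IGFBP3 higher and IGFBP2, IGFBP4, IGFBP5 and IGFBP6 lower. The median of the members was -0.44 and -0.30 in these comparisons, against -0.03 and -0.01 for all genes. At an unadjusted p under 0.05 there were 4 and 5 of 9 members, against 22.7% and 21.9% of all genes. Control siRNA called 6 of 9 members without Wnt3a (22.3% of all genes), IGFBP4 and IGFBP6 higher and IGF1, IGFBP2, IGFBP3 and IGFBP7 lower, and 2 of 9 with Wnt3a (9.04% of all genes), IGFBP6 higher and IGFBP3 lower. The median of the members was -0.36 and -0.47 with control siRNA, against -0.03 and -0.02 for all genes, and 6 and 5 members had an unadjusted p under 0.05 (33.2% and 22.9% of all genes). FZD8_CRD called 4 of 9 without Wnt3a, a share near the 41.9% of all genes, and 4 of 9 with Wnt3a, near the 37.2% of all genes, with member medians of 0.05 and 0.07 against -0.09 and -0.08. Unadjusted p-values under 0.05 were found for the same number of members, 4 and 4, and for 48.9% and 45.2% of all genes. Without array 3 of FZD8_CRD alone the first of these counts was 3 of 9 (40.6% of all genes), as IGFBP2 and IGFBP3 were lost and IGFBP5 was gained. The tests of a different Wnt3a response called 0 of 9 members by limma between the siRNAs (0.0162% of all genes), with 0 at an unadjusted p under 0.05 (3.34% of all genes). Between FZD8_CRD and untransfected cells they also called 0 of 9 (0.073% of all genes), with 3 at an unadjusted p under 0.05 (12.7% of all genes). Leaving out array 3 of FZD8_CRD alone, they called 2 of 9, IGF1 and IGFBP5, where 7.75% of all genes were called, and without replicate 3 in any condition 3 of 9, IGF1, IGFBP3 and IGFBP5 (12.1% of all genes). Conditions enter several of these comparisons, so that comparisons sharing an untransfected, control siRNA or FZD8_CRD condition are not independent of each other. Of the 28 calls, 24 were between groups whose arrays did not overlap. No value over all genes is at hand for this number, so that whether it is particular to the members cannot be told. With the slide as a block all 28 were kept and 5 more were made, while the share of all genes called rose in each comparison. That share went from 22.3% to 32.1% for control siRNA without Wnt3a. For FZD8_CRD it went from 41.9% to 53.3% without Wnt3a and from 37.2% to 48.5% with it. Of the same 28 calls 19 ended under spike-in scaling, 20 without replicate 1, 18 without replicate 2 and 12 with only the conditions compared. The study's thresholds ended 4, those of IGF1R with FZD8_CRD under Wnt3a, IGFBP3 with FZD8_CRD alone, and IGFBP4 and IGFBP7 with control siRNA alone, and added 4. No value over all genes is at hand for these thresholds.

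**Figure D4:**
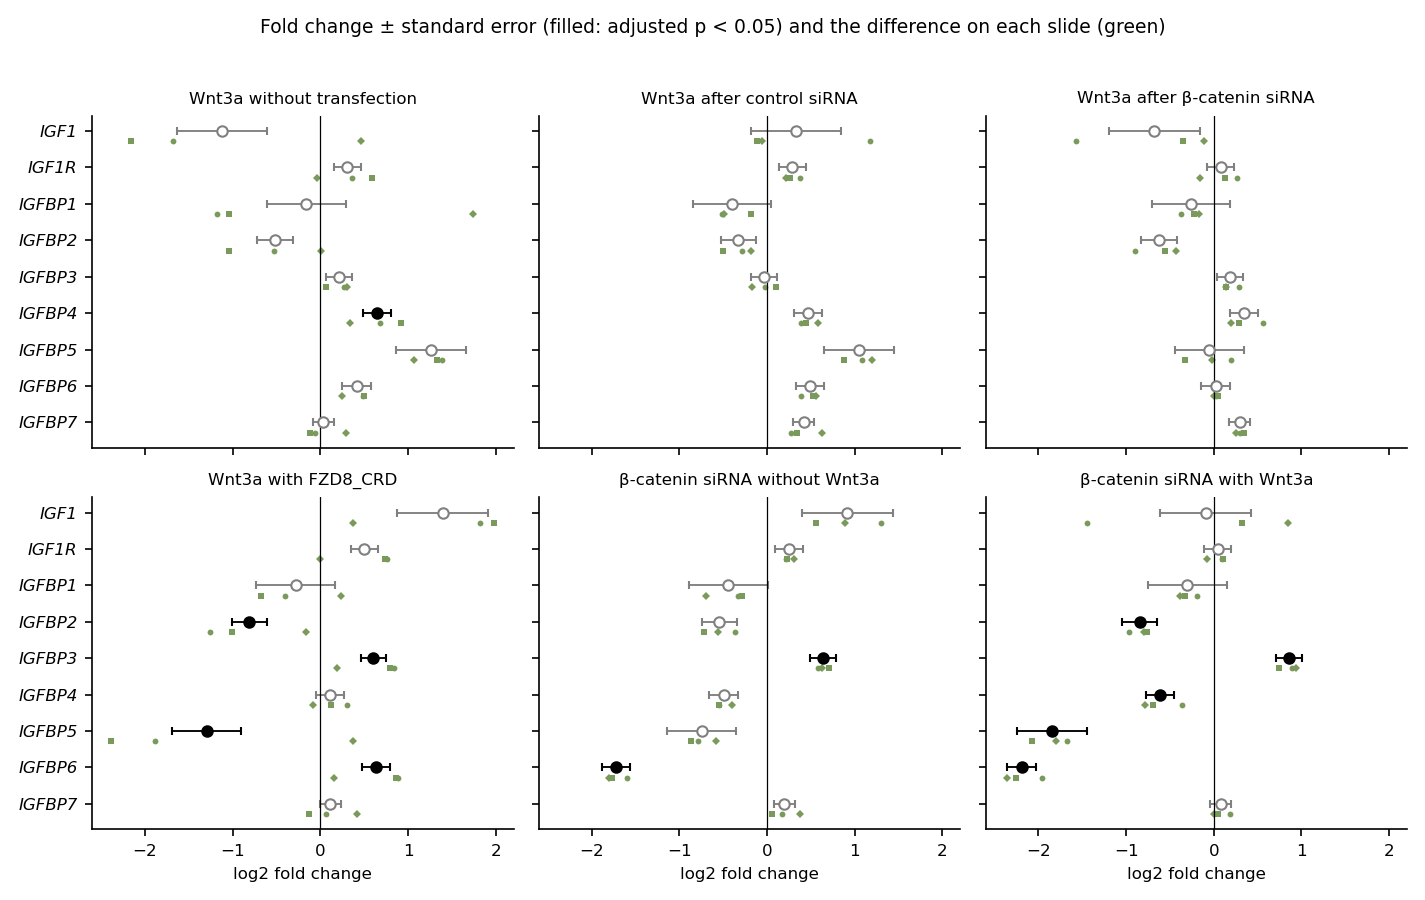
Fold change ± standard error (x axis, log2) of the 9 tested genes for Wnt3a in 4 settings and for β-catenin siRNA without and with Wnt3a, filled where the adjusted p is under 0.05, with the difference on each of the 3 slides in green. IGFBP6 lies at -1.73 and -2.19 with β-catenin siRNA against control siRNA, and IGFBP3 at 0.64 and 0.86.

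The rest of the axis was described through 4 lists with 52 genes, of which 46 were tested. Wnt3a in untransfected cells called 9 of 46, 5 higher and 4 lower (median 0.04, against 0.01 for all genes, of which 5.6% were called), and each of the 9 calls ended when some single array was left out. All 9 ended without replicate 1, without replicate 2 and with only the conditions compared, and 7 under spike-in scaling. Higher were ADAM12 (1.01), a protease that cleaves IGFBP3 and IGFBP5, PAPPA (0.42), which frees IGF from IGFBP4, the serine protease HTRA1 (0.42), FHL2 (0.58), a cofactor that binds FOXO1, and the kinase AKT1 (0.22). Under spike-in scaling AKT1 was at -0.18, where the median of all genes moved as well, from 0.01 to -0.38. On slide 3 ADAM12 and PAPPA did not rise (-0.20 and -0.02), their groups overlapped, and without array 2 of untransfected cells with Wnt3a they were at 0.59 (adjusted p = 0.292) and 0.25 (adjusted p = 0.276). Over its alternatives the adjusted p of ADAM12 ran from 0.00135 to 0.964 and that of PAPPA from 0.00156 to 0.973. Lower were IGFALS (-1.11), the acid-labile subunit, the adaptor GRB14 (-0.72), the growth hormone receptor GHR (-0.67) and the insulin receptor INSR (-0.45). After control siRNA HTRA1 was the gene called (0.45), 1 of 46 against 2.11% of all genes, a call lost in 7 of 19 alternatives, 4 of which left out a single array: array 1 or 3 of control siRNA alone (adjusted p for HTRA1 of 0.0668 and 0.0766) or array 2 or 3 with Wnt3a (0.0704 and 0.0534). The other 3 were replicate 1 (0.299), replicate 2 (0.173) and spike-in scaling (0.686). After β-catenin siRNA limma called 0 of 46, against 0.0406%, with 4 at an unadjusted p under 0.05 (10.4% of all genes). With FZD8_CRD present Wnt3a called 10 of 46, against 8.29% of all genes, of which HTRA1 (0.48), FHL2 (0.44) and IGF2BP3 (1.79), which binds IGF2 mRNA, were higher. The 7 lower were IGFALS (-1.10), GHR (-0.64), the protease CTSD (-0.57), the receptor substrate IRS2 (-0.58), the regulatory subunit PIK3R1 (-0.76), and the FOXO1 targets PPARGC1A (-1.23) and PDK4 (-1.13). Of these 10 calls, 3 held whichever single array was left out: HTRA1, IGF2BP3 and PPARGC1A. They were lost in 4, 3 and 3 of 19 alternatives, as all 10 calls ended without replicate 1, without replicate 2 and with only the conditions compared, and 8 under spike-in scaling. The highest adjusted p was 1 for HTRA1, 0.48 for IGF2BP3 and 0.438 for PPARGC1A. Without array 3 of FZD8_CRD alone 12 of 46 were called, against 19.9% of all genes, with FOXO1 (-0.46) and RHEB (-0.63) added, IGF2BP3 at 2.48 and PDK4 at -1.58.

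β-catenin siRNA without Wnt3a called 7 of 46 genes, 6 higher and 1 lower (median 0.10, against -0.03 for all genes, of which 10.6% were called). These were GRB10 (0.45), an adaptor that dampens IGF1R and insulin receptor signals, HTRA1 (0.47), IGF2BP2 (0.40), FOXO3 (0.38), IGF2R (0.34), the receptor that clears IGF2, and PIK3R2 (0.21), with AKT1 lower (-0.29). With Wnt3a it called 8 of 46, all higher (median 0.09, against -0.01 for all genes, of which 10.6% were called): PIK3R1 (0.64), GHR (0.61), IRS2 (0.51), HTRA1 (0.47), FOXO1 (0.46), SESN3 (0.43), IGF2BP2 (0.42) and FOXO3 (0.41). IRS2, FOXO1 and SESN3 belong to the arm in which FOXO factors act when IGF and insulin signals are low, and among the 6 tested genes of the FOXO1 target list IRS2 and SESN3 were the 2 called. Leaving out some single array ended 3 of the 7 calls without Wnt3a, those of IGF2BP2, IGF2R and PIK3R2. IGF2R was at 0.21 (adjusted p = 0.126) without array 3 of control siRNA alone. With Wnt3a it ended 4 of the 8 calls, those of GHR, IGF2BP2, IRS2 and SESN3. The remaining 8 calls were not stable either: each of the 15 was lost in at least 2 of 19 alternatives, and all 15 ended under spike-in scaling. Without Wnt3a 7 of 7 ended without replicate 1 and 6 without replicate 2, with Wnt3a 6 of 8 and 8 of 8. Under spike-in scaling the adjusted p was 0.808 for FOXO1 and 0.694 for PIK3R1 with Wnt3a, and 1 for AKT1 without it. Control siRNA called 14 of 46 without Wnt3a, against 22.3% of all genes, and 7 of 46 with it, against 9.04%. FZD8_CRD called 20 of 46 without Wnt3a, close to the 41.9% of all genes, and 26 of 46 with it, against 37.2%. In both tests of a different Wnt3a response limma called 0 of 46, with 2 at an unadjusted p under 0.05 between the siRNAs (3.34% of all genes) and 5 with FZD8_CRD (12.7%). Once array 3 of FZD8_CRD alone was left out, FZD8_CRD called 19 of 46 without Wnt3a (40.6% of all genes) and the difference with FZD8_CRD 5 of 46 (7.75% of all genes).

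Markers of other cell types were read on the same arrays. Of 5 biliary and progenitor genes, EPCAM and PROM1 were not well above background in enough arrays to be tested, KRT19 had the brightest probe, and the summed level lay between 220 and 305 on all arrays without FZD8_CRD. With FZD8_CRD it was 288, 298 and 384 alone and 384, 382 and 345 with Wnt3a. Of the 3 tested, FZD8_CRD called 1 higher and 1 lower both without Wnt3a (41.9% of all genes) and with it (37.2%). Without array 3 of FZD8_CRD alone limma called 0 of 3 for FZD8_CRD without Wnt3a (40.6% of all genes), with 1 at an unadjusted p under 0.05. For Wnt3a with FZD8_CRD present it called 0 of 3 with that array, with 0 at an unadjusted p under 0.05, and 2 of 3 without it, KRT19 and SOX9, 1 higher and 1 lower (19.9% of all genes). The part of these markers in the levels of IGF1R and IGFBP3, which were highest with FZD8_CRD and Wnt3a, was not tested. Of 7 mesenchymal genes, all tested, 4 were called higher with Wnt3a in untransfected cells (5.6% of all genes called) and 4 with FZD8_CRD present (8.29% of all genes, and 4 again without array 3 of FZD8_CRD alone). With β-catenin siRNA under Wnt3a 4 were called lower and 1 higher (10.6% of all genes). Their summed level was 24.3, 23.4 and 21.6 in untreated cells, 26.5, 31.8 and 26.4 in untransfected cells with Wnt3a, and 38.2, 37.9 and 33.3 with FZD8_CRD and Wnt3a. The last of these conditions had the highest mesenchymal sum, with the probe of CDH2 the brightest on 2 arrays and that of ACTA2 on the third, while IGFBP5 was near the floor there. The part of these markers in the changes of IGFBP4 and IGFBP5 was not tested. The 3 endothelial genes together reached at most 0.276 multiples of the 75th percentile, with the probe of CDH5 the brightest, and the 3 immune genes at most 3.99, with that of CD68 the brightest.

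The genes most like each member were taken by Pearson r over the 24 arrays, as a description in which arrays of a condition are not independent. IGF1 was most like HRG (0.94), UGT2B11 (0.94) and UGT2B10 (0.94), all known from hepatocytes. IGFBP2 was most like AK7 (0.97), ALDH5A1 (0.97) and RARRES2 (0.97). IGFBP5 was most like ALDH7A1 (0.94) and then the small matrix proteoglycans EPYC (0.93) and LUM (0.92). IGFBP6 was most like EBI3 (0.98), IL20RB (0.97) and FPR1 (0.96), which are known from immune signalling. IGFBP3 was most like SOX4 (0.88), the Notch ligand JAG1 (0.88) and LPCAT1 (0.88), and IGFBP4 like PKP3 (0.94), STXBP6 (0.92) and MYCN (0.92). IGF1R was most like GLIPR2 (0.93), RNF122 (0.91) and C6orf141 (0.91). Lower values were reached by IGFBP1, with SLC1A1 (0.86), TPT1 (0.85) and SPNS2 (0.85), and by IGFBP7, with FLRT2 (0.82), TMEM248 (0.79) and EPB41L5 (0.74).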

How the data were processed

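Intensity values per spot, deposited by the authors for each array, are linear, background-subtracted and detrended by Agilent Feature Extraction (10.7.1.1 in the headers, 10.7.3.1 in the submitters' notes). The authors also deposited log2 values relative to the 75th percentile, centred per probe, which served as an alternative. Spots marked as outliers were dropped, arrays were scaled to the 75th percentile, and a probe was kept if, in at least 1 condition, each of the 3 arrays had it well above background. The brightest kept probe stood for a gene. limma 3.58.1 under R 4.3.3 fitted each condition's mean (eBayes with trend, two-sided, Benjamini-Hochberg over 24643 genes), and limma was tested on simulated data. Python 3.11.15 and matplotlib 3.10.9 made tables and figures. Replicate deviations correlated at 0.384 within a replicate number and at -0.191 between numbers, with 82 of 84 same-number pairs over 0.1. No pairing is stated, so the replicate number (the slide) was tried as a block, not fitted.

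All 10 members are named, as are genes of the pathway lists called in a Wnt3a or β-catenin siRNA comparison and the 3 genes most like each tested member. The members and lists were chosen with earlier results of these data known. Alternatives were quantile normalization, normexp background (offset 50, on the median signal because the files hold no mean signal), the deposited values, outlier spots kept, averaged probes, omitting the filter or requiring all 24 arrays, the replicate block, only the conditions compared, the study's thresholds, and leaving out replicates or single arrays. Scaling to 7 spike-in probes was chosen after seeing the data.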

Additional observations from a re-analysis of the deposited data

How the results depend on the processing

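Over the alternatives, 423 of the values of called members kept direction and call, 129 lost the call and 1 reversed, the study's thresholds included, which the numbers of alternatives given for single calls leave out, and of the member counts 193 stayed within 1.5 times and 59 did not. With the replicate number (slide) as a block, Wnt3a called 2 members in untransfected cells (11.5% of all genes, against 5.6%) and 1 after control siRNA (4.35%, against 2.11%), and the FZD8_CRD difference of responses called 1 (0.605%, against 0.073%). Quantile normalization gave 1 and the deposited values 1 for Wnt3a after control siRNA (2.05% and 2.26% of all genes), and the deposited values gave 2 for FZD8_CRD without Wnt3a (47.2%). Normexp gave 2 for Wnt3a in untransfected cells (4.71%). Without a filter that count was 0 (2.06%), and 2 for Wnt3a with FZD8_CRD (3.39%), with more genes tested. With only the conditions compared, Wnt3a called 0 in untransfected cells (0.00812% of all genes), 2 after control siRNA (5.39%) and 0 with FZD8_CRD (0%), β-catenin siRNA 7 without Wnt3a (17.5%), control siRNA 0 with Wnt3a (0.00406%) and FZD8_CRD 2 without Wnt3a (25.9%). The study's thresholds gave 2 for Wnt3a in untransfected cells (IGFBP5 added), 1 after β-catenin siRNA (IGFBP2) and 2 for the FZD8_CRD difference (IGF1 and IGFBP5). No share of all genes is at hand for these thresholds, so that these counts say nothing particular about the members. With spike-in scaling the median of all genes was -0.48 for FZD8_CRD without Wnt3a (-0.09 before), -0.38 for Wnt3a in untransfected cells (0.01 before) and 0.18 after control siRNA (0.02 before). Under it Wnt3a called 0 in untransfected cells (1.24% of all genes) and 0 with FZD8_CRD (0.99%), β-catenin siRNA 1 without (0.73%) and 2 with Wnt3a (2.6%), control siRNA 2 (6.33%) and 0 (0.978%), and FZD8_CRD 2 (29.9%) and 2 (9.55%). IGFBP3 with FZD8_CRD without Wnt3a, the value counted as reversed, was -0.000505 ± 0.257 under it, which gives no direction. Except where fewer samples or more genes were fitted, the cause was not tested.

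Leaving out replicates or single arrays, counts ran from 0 to 6 for Wnt3a in untransfected cells, 0 to 0 after control siRNA, 0 to 0 after β-catenin siRNA and 0 to 6 with FZD8_CRD. They ran from 1 to 4 (without Wnt3a) and 1 to 5 (with it) for β-catenin siRNA, 0 to 7 and 0 to 5 for control siRNA, 1 to 4 and 3 to 4 for FZD8_CRD, and 0 to 0 and 0 to 3 for the differences of responses between siRNAs and with FZD8_CRD. The 5 for control siRNA came without array 2 of untransfected cells with Wnt3a, where IGFBP1, IGFBP2 and IGFBP4 were added. The share of all genes in that setting is not at hand, so that this count says nothing particular about the members. For Wnt3a in untransfected cells the share of all genes, leaving out replicate 1, 2 or 3 in turn, was 0.11%, 0.0243% and 25.7%, the last being where 6 members were called. With FZD8_CRD it was 0.0122%, 0% and 21.6%, and for control siRNA without Wnt3a 0.954%, 8.93% and 27.9%. In the same order, control siRNA with Wnt3a gave 0.00406%, 3.58% and 5.08% of all genes. β-catenin siRNA gave 2.04%, 1.92% and 9.65% without Wnt3a and 3.73%, 2.39% and 10.74% with it. For FZD8_CRD the share was 25.2%, 25.7% and 45.6% without Wnt3a and 16.7%, 25.0% and 41.1% with it. The FZD8_CRD difference of responses gave 0%, 0% and 12.1%. An arm left with fewer arrays borrows its spread from the others. IGF1 gave no value with the deposited values or the filter on all 24 arrays, nor IGFBP5 with that filter. IGF1, IGF2 and IGFBP5 were near background, where signal limits what can be seen.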
